A study of Mus musculus with 6 samples.

Results

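The genes of the major histocompatibility complex (MHC) and of the pathway that loads its molecules with peptide were followed in primary mouse pancreatic stellate cells (PSCs), cells that can give rise to cancer-associated fibroblasts (CAFs), under low oxygen. Members were taken by name: each row of the expression table whose Ensembl identifier carries a symbol beginning with H2- in GENCODE release M21, and 18 named partners in antigen processing. This gave 63 genes of the 55426 in the table, 45 with an H2- symbol and 18 partners, of which 50 lie on chromosome 17 and 11 are annotated as pseudogenes of some kind. No value was used as a threshold, but the group was put together because higher counts of nonclassical class I genes, *H2-Q2* above all, were already known in these samples, and class II chains such as *H2-Ab1* had been looked at. Values of H2-Q, H2-T and class II chain genes are therefore given as a description, without p-values, and the adjusted p-values of the other members describe these samples and are not independent evidence.

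PSCs from adult wild-type C57BL/6 mice were grown in Matrigel in a transwell insert above organoids of mT3, a mouse pancreatic ductal adenocarcinoma (PDAC) line. The cocultures were kept for 48 h at 21% O2 (normoxia, 3 samples) or at 1% O2 (hypoxia, 3 samples), and both conditions therefore include the tumor organoids. The comparison asks how oxygen changes the PSC transcriptome when tumor cells are present. The PSCs are low-passage primary lines and not clones, and the sources do not say whether the 3 samples of a condition came from separate mice, so the p-values measure the spread between these samples.

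An MHC class I molecule is a heavy chain bound to a common light chain, the product of *B2m*, and it shows peptides made from proteins of the cell itself to T cells. In C57BL/6 mice the classical heavy chains are *H2-K1* and *H2-D1*, while the many H2-Q, H2-T and H2-M genes encode nonclassical or class I-like chains, some of which are ligands of receptors on natural killer (NK) cells. Peptides are cut by the proteasome, pumped into the endoplasmic reticulum by the TAP transporter, trimmed, and fitted into the heavy chain with the help of tapasin and folding chaperones. MHC class II molecules are pairs of an alpha and a beta chain, are guided by the invariant chain *Cd74*, and show peptides from engulfed material. They are typical of professional antigen-presenting cells, but some fibroblasts of pancreatic tumors also carry them and have been named antigen-presenting CAFs.

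The sequences just before the start of class I genes are shown here because these genes, neighbours in one region and similar in sequence, carry most of the results. Promoters were found for 44 of the 63 members in a RefSeq table on GRCm38.p6, which held 11 of the classical, H2-Q and H2-T genes. The 250 bases before the RefSeq start are given 5′ to 3′. In *H2-K1*, *H2-D1* and *H2-Q7* the capitals mark the letters GGGNNTTCC, a core of the sequence bound by NF-kB. In *H2-Q10* they mark the 9 bases that line up with it. In *H2-T23* they mark, on the opposite strand, the letters of an interferon-stimulated response element (ISRE), GAAA, any 2 bases and GAAA.
H2-K1 (chr17:34000348-34000597, minus strand): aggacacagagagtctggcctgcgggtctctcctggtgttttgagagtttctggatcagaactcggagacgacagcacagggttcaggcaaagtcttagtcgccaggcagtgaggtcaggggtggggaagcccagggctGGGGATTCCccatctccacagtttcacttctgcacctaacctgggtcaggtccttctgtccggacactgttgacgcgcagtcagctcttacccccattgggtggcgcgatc
H2-D1 (chr17:35262844-35263093, plus strand): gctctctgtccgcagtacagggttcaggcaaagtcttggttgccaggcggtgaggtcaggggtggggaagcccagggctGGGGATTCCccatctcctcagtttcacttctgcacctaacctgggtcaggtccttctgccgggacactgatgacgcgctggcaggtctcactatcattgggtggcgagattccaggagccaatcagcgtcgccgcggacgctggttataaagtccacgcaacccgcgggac
H2-Q7 (chr17:35438905-35439154, plus strand): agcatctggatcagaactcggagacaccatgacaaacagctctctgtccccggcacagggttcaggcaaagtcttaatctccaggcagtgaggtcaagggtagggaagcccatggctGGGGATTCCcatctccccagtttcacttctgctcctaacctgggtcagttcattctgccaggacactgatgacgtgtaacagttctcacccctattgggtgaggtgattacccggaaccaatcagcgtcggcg
H2-Q10 (chr17:35469839-35470088, plus strand): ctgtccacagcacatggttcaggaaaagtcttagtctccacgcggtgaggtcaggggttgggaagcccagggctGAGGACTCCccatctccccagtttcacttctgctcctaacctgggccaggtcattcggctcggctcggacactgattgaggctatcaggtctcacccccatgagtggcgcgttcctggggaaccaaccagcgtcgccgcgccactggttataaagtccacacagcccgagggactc
H2-T23 (chr17:36032702-36032951, minus strand): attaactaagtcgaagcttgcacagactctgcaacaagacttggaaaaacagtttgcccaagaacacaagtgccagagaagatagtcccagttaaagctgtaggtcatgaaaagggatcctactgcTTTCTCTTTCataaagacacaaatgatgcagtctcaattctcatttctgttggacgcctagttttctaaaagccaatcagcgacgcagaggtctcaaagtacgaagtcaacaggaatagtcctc

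*H2-K1* and *H2-D1* held the same 21 bases around the capitals without a mismatch. *H2-Q10* differed from them in this stretch at 2 bases, both inside the core, G2A and T6C, with positions counted from 1 at the first base of the core. Searched on both strands over 250 bases before and 50 after each start, the letters GGGNNTTCC were in the promoters of 5 of these 11 genes, *H2-D1*, *H2-K1*, *H2-Q4*, *H2-Q6* and *H2-Q7*, and in 5.82% of all 32851 promoters of the table. The ISRE letters were in 2 of the 11, *H2-T22* and *H2-T23*, and in 3.44% of all promoters. Only these exact letters were searched, so an interferon element with other letters in the remaining promoters would have been missed. The letters ACGTG, the core bound by hypoxia-inducible factors, were in 3 of the 11, *H2-Q4*, *H2-Q7* and *H2-T22*, and in 19.6% of all, and they can overlap TGACG, part of the cAMP response element, which was in 5 of the 11 and 20.8% of all. The CCAAT box was in 9 of the 11 and in 37.4% of all, and the interferon-gamma-activated letters TTCNNNGAA in 0 of the 11 and 8.3% of all. These matches are a description of the letters, and their part in the results that follow was not tested.

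Of the 63 members, 40 passed the filter on low counts. Of the other 23, 15 had 0 counts in every library and 21 had 3 or fewer in each. *H2-Q1*, *H2-Q2* and *H2-T3* passed through their hypoxic counts alone. A gene was called when its fold change between conditions was beyond 1.5 and its adjusted p (edgeR's quasi-likelihood test, Benjamini-Hochberg over 16207 genes) was under 0.05. By this rule 14 of the 40 were called higher in hypoxia, 5 lower and 21 were not called. Over all tested genes 18.9% were called higher and 15.3% lower, 34.2% in either direction. All 3 hypoxic samples lay above all 3 normoxic ones for 15 of the 40 members and below them for 16, against 34.9% and 34.0% of all tested genes, 68.9% in either direction. The median log2 fold change was -0.0054 over the 40 members and -0.0040 over all tested genes. Since the group was chosen with part of this contrast known, nothing is read from these counts. The called rises were in *H2-K1*, H2-Q and H2-T rows, *H2-Ab1*, *Cd74* and *H2-K2*, with *H2-K2*, *H2-Q5* and *H2-T-ps* annotated as pseudogenes, and the called falls were in the light chain and in genes that serve the class I and CD1d pathways.

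**Figure D1:**
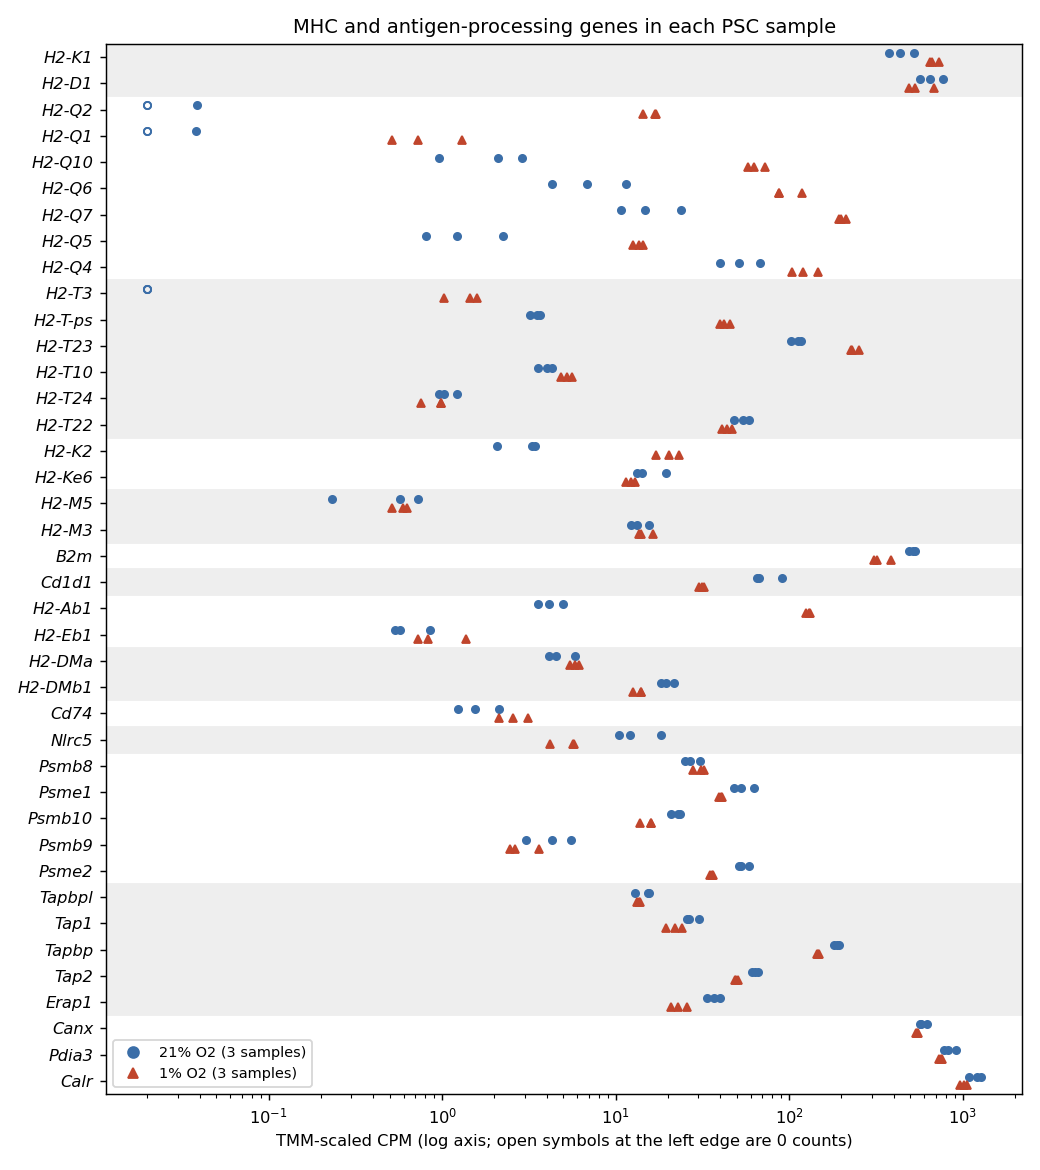
Level of each of the 40 tested members in every sample, as CPM (counts per 1000000 counts of the library size scaled by the trimmed mean of M-values, TMM), on a log axis; blue circles are the 3 samples at 21% O2, red triangles the 3 samples at 1% O2, and grey bands separate roles. The H2-Q genes and *H2-Ab1* show groups far apart, while *B2m*, *Nlrc5* and *Cd1d1* lie lower in hypoxia and the chaperones at the foot differ little.

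Of the classical heavy chains, *H2-K1* was called higher and *H2-D1* was not called. *H2-K1* (chr17:33996017-34000347) measured 375, 521 and 435 CPM in normoxia and 644, 730 and 665 CPM in hypoxia. All hypoxic samples lay above all normoxic ones, with a log2 fold change of 0.62 ± 0.11 (SE, n = 3 per condition, edgeR adjusted p = 0.00112). *H2-D1* (chr17:35262730-35267499) measured 568, 773 and 645 CPM in normoxia and 492, 685 and 534 CPM in hypoxia. Its groups overlapped and its log2 fold change of -0.21 ± 0.14 was not called (edgeR adjusted p = 0.205). With the replicate number as a block, *H2-D1* was at -0.22 ± 0.05 (edgeR adjusted p = 0.0074), still not past the fold threshold. The ratio of *H2-K1* to *H2-D1* in CPM, which takes no account of gene length, was 0.659, 0.675 and 0.674 in normoxia and 1.31, 1.07 and 1.25 in hypoxia. The difference between these ratios was not tested. The call of *H2-K1* rested on the fold threshold: without normoxia replicate 1 its log2 fold change was 0.50 and without hypoxia replicate 2 it was 0.56, both under 1.5-fold. The summed classical chains did not differ by a called amount, at 1106 ± 177 CPM in normoxia and 1250 ± 146 CPM in hypoxia (SD, log2 fold change 0.18 ± 0.12, edgeR adjusted p = 0.231).

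The H2-Q genes, which encode nonclassical chains such as Qa-2 (*H2-Q6* and *H2-Q7*) and a secreted chain known from liver (*H2-Q10*), held the widest changes among the heavy chains. The 8 H2-Q rows lie in one stretch of chromosome 17, and all 7 that had counts were higher in hypoxia in every sample. Since these genes are near copies of each other, the sum over the family is the safer value. It was 56.6, 108 and 76.2 CPM in normoxia and 471, 584 and 498 CPM in hypoxia, a log2 fold change of 2.69 ± 0.20 (SE).

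*H2-Q7* (chr17:35439155-35443773) rose from 10.8, 23.8 and 14.8 CPM to 193, 213 and 199 CPM, and *H2-Q6* (chr17:35424850-35430055) from 4.27, 11.5 and 6.82 CPM to 86.8, 119 and 87.9 CPM. The lowest hypoxic sample of each was several times its highest normoxic one, with log2 fold changes of 3.62 ± 0.22 and 3.70 ± 0.27 (SE). *H2-Q10* (chr17:35470089-35474563) went from 0.962, 2.88 and 2.11 CPM to 57.9, 72.3 and 62.5 CPM, a log2 fold change of 5.01 ± 0.23. It was the largest fitted change among members that had more than 1 normoxic count in all, close to that of *H2-Ab1* (4.93 ± 0.10). Without 1 sample, *H2-Q10* ran from 4.67 to 5.39 and *H2-Ab1* from 4.82 to 5.05, so their order is not firm. *H2-Q4* (chr17:35379617-35385290), the most abundant H2-Q gene in normoxia, had the smallest change of the family. It measured 39.7, 67.6 and 51.3 CPM against 103, 146 and 120 CPM, a log2 fold change of 1.22 ± 0.18. *H2-Q5*, annotated as a polymorphic pseudogene, went from 1.42 ± 0.74 to 13.5 ± 0.96 CPM (SD), a log2 fold change of 3.24.

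The remaining H2-Q genes were at or near 0 in normoxia. *H2-Q2* (chr17:35342242-35346762) had 1 count in all normoxic libraries together and 1422 in the hypoxic ones, a ratio of 1235 per scaled library size with a 95% exact binomial interval of 221.3 to 48820. *H2-Q1* had 0, 1 and 0 counts in normoxia and 13, 41 and 23 in hypoxia, a ratio of 66.9 with an interval of 11.7 to 2675. These intervals cover counting error only. *H2-Q3*, a pseudogene, had 0 counts in every library. Per kilobase of exon, the hypoxic levels of *H2-Q4*, *H2-Q6* and *H2-Q7* were alike, at 47.5, 47.0 and 47.3 CPM per kilobase, whereas the normoxic level of *H2-Q4* was 20.4 against 3.61 for *H2-Q6* and 3.86 for *H2-Q7*.

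How far copies can be told apart was measured on the annotated transcripts. Of all 75-base windows of a gene's exons, the share found in no other gene was 83.0% for *H2-Q7*, 82.1% for *H2-Q6*, 78.8% for *H2-Q5*, 87.5% for *H2-Q10* and 93% for *H2-Q4*. It was 96.9% for *H2-K1* and 94.6% for *H2-D1*. Reads that fit several of these genes were divided by RSEM's estimate, so the split between *H2-Q6* and *H2-Q7* is less certain than their sum. The H2-Q sum relative to the classical sum was nearly the same in the 3 hypoxic samples, at 0.415, 0.413 and 0.416, and lower and more spread in the normoxic ones, at 0.060, 0.083 and 0.071.

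**Figure D2:**
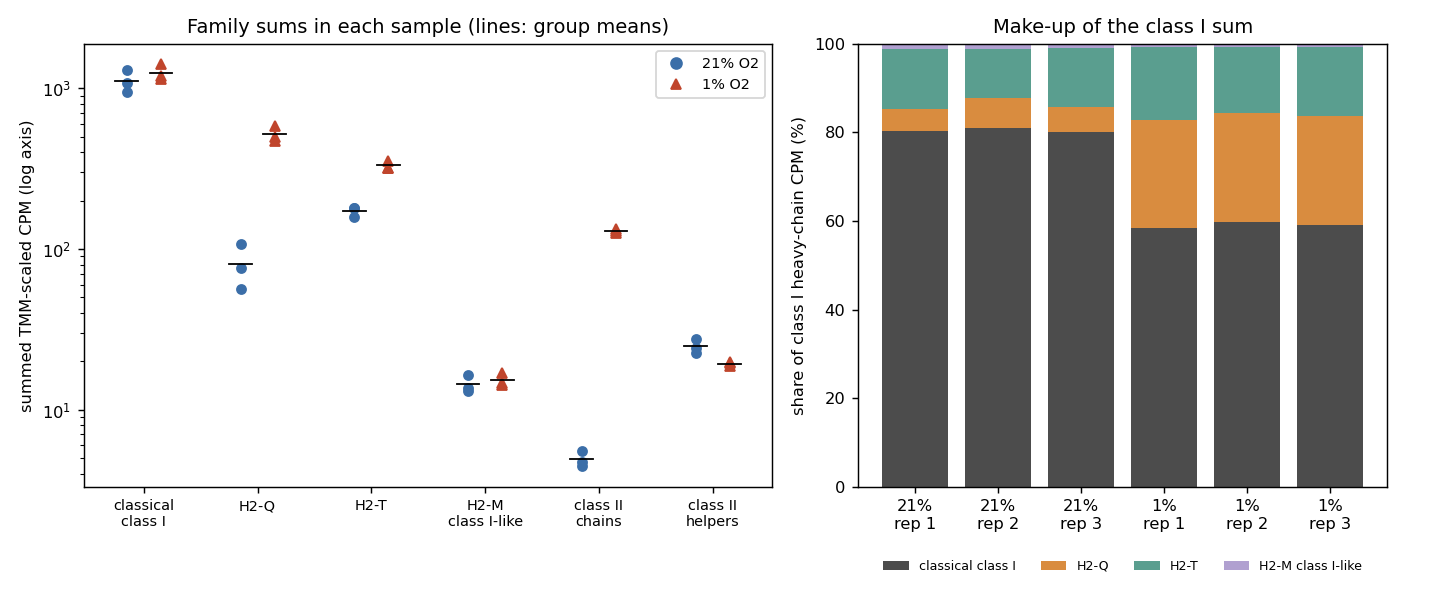
Left, summed TMM-scaled CPM of each MHC family in every sample on a log axis, with black lines at the group means; right, share of each family in the class I heavy-chain sum of each sample, in percent. The H2-Q share was 4.83% to 6.76% in normoxia and 24.3% to 24.6% in hypoxia, and the class II chain sums stand far apart.

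The sum of the 6 H2-T genes went from 172 ± 11.5 to 331 ± 20.5 CPM (SD, log2 fold change 0.94 ± 0.07 SE). With protein-coding rows only, the log2 fold change of the sum was 0.78 ± 0.07 (SE). *H2-T23* (chr17:36029773-36032855), which encodes Qa-1, the ligand of inhibitory receptors on NK cells, carried most of the sum. It measured 103, 112 and 116 CPM in normoxia and 228, 254 and 230 CPM in hypoxia, with no overlap and a log2 fold change of 1.10 ± 0.07. Its neighbour *H2-T22* (chr17:36037128-36042747), whose product is bound by some gamma-delta T cells, was not called. It measured 47.8, 58.4 and 54.4 CPM against 43.7, 46.7 and 41.2 CPM, and its log2 fold change of -0.29 ± 0.08 was not past the fold threshold. The ratio of *H2-T23* to *H2-T22* was 2.07 ± 0.13 in normoxia and 5.41 ± 0.18 in hypoxia (SD of 3 samples, not tested).

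The pseudogene *H2-T-ps* (chr17:36109234-36111658) went from 3.54, 3.19 and 3.65 CPM to 41.9, 45.5 and 39.8 CPM, a log2 fold change of 3.61 ± 0.09. Its exons overlap those of *Gm7030* on the same strand and of *BC023719* on the other, and the strand setting of the counting is not given in the sources used here, so reads of overlapping genes cannot be told apart. *H2-T3*, the thymus leukemia antigen, had 0 counts in every normoxic library and 26, 50 and 46 in the hypoxic ones, at least 11.6-fold higher when normoxia is set at a floor of 3 counts per library. *H2-T10* (log2 fold change 0.40 ± 0.14) and *H2-T24* (-0.24 ± 0.25) were not called.

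Further H2- symbols outside these families were mixed. *H2-K2* (chr17:33974659-33978827), a transcribed pseudogene beside *H2-K1*, measured 2.08, 3.30 and 3.41 CPM in normoxia and 17, 23.2 and 20.2 CPM in hypoxia, a log2 fold change of 2.78 ± 0.18 (edgeR adjusted p = 2.6e-06). *H2-Bl*, annotated as a polymorphic pseudogene, had 0 counts in normoxia and 9, 12 and 16 in hypoxia, at least 3.53-fold higher on the same floor, and did not pass the filter. *H2-Pa* and *H2-Pb* had 0 counts in every library. *H2-Ke6* carries an H2- symbol but encodes a metabolic enzyme and no MHC chain. It was not called, with a log2 fold change of -0.36 ± 0.14, and 65.5% of its windows of 75 bases are shared with the overlapping gene *Gm20427*.

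The H2-M class I-like genes were mostly silent. Of 14 rows, 9 had 0 counts in every library and 2 passed the filter. *H2-M3* (chr17:37270220-37274484), which presents formylated peptides such as those of bacteria, measured 13.3, 15.6 and 12.3 CPM in normoxia and 13.6, 16.4 and 14 CPM in hypoxia. Its groups overlapped, with a log2 fold change of 0.09 ± 0.11 (edgeR adjusted p = 0.492), and the sign turned to -0.000317 without hypoxia replicate 2. *H2-M5* measured 0.231, 0.569 and 0.730 CPM against 0.628, 0.511 and 0.597 CPM, also with overlap, and its log2 fold change of 0.18 ± 0.40 turned to -0.17 without normoxia replicate 1. The family sum was 14.4 ± 1.8 and 15.3 ± 1.5 CPM (SD). Neither gene was called by edgeR, DESeq2 or limma-voom, and 0 of the 2 had an unadjusted edgeR p under 0.05.

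Adding the classical, H2-Q, H2-T and H2-M chains gave 1373 ± 214 CPM in normoxia and 2114 ± 226 CPM in hypoxia (SD), which is 0.137% and 0.211% of all counts. The classical chains made up 80.5% ± 0.47 of it in normoxia and 59.1% ± 0.59 in hypoxia. The H2-Q share was 5.75% ± 0.97 against 24.5% ± 0.20, and the H2-T share 12.7% ± 1.3 against 15.7% ± 0.77. The sums ranged from 1172 to 1598 CPM in normoxia and from 1942 to 2371 CPM in hypoxia, and the H2-Q share from 4.83% to 6.76% and from 24.3% to 24.6%. Replicate 2 was the highest of the hypoxic samples in 15 of 15 tested heavy-chain genes outside the H2-M family, and among normoxic samples it was the highest in 10 of them.

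The light chain did not share the rise of the summed heavy chains. Among these, *H2-D1*, *H2-T22* and *H2-T24* were not called and also had negative log2 fold changes. *B2m* (chr2:122147686-122153083) measured 492, 535 and 519 CPM in normoxia and 307, 384 and 321 CPM in hypoxia. All hypoxic samples lay below all normoxic ones, a log2 fold change of -0.61 ± 0.09 (SE, edgeR adjusted p = 2.6e-04). It fell short of 1.5-fold, at -0.55 and -0.58, when hypoxia replicate 1 or hypoxia replicate 3 was left out. Per kilobase of exon, *B2m* was still the most abundant member in both conditions, at 599 and 393 CPM per kilobase. The class I heavy-chain sum relative to *B2m* on this per-length scale was 0.755, 0.946 and 0.822 under normoxia and 1.98, 1.95 and 1.98 under hypoxia, a difference that was not tested. This sum includes rows annotated as pseudogenes, such as *H2-T-ps* and *H2-Q5*. *Cd1d1* (chr3:86995834-86999441), a class I-like chain that presents lipids to NKT cells and also pairs with the light chain, fell as well. It measured 67.5, 90.7 and 65.6 CPM in normoxia and 30.2, 31.7 and 32.4 CPM in hypoxia, a log2 fold change of -1.25 ± 0.12 (edgeR adjusted p = 2.1e-05).

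**Figure D3:**
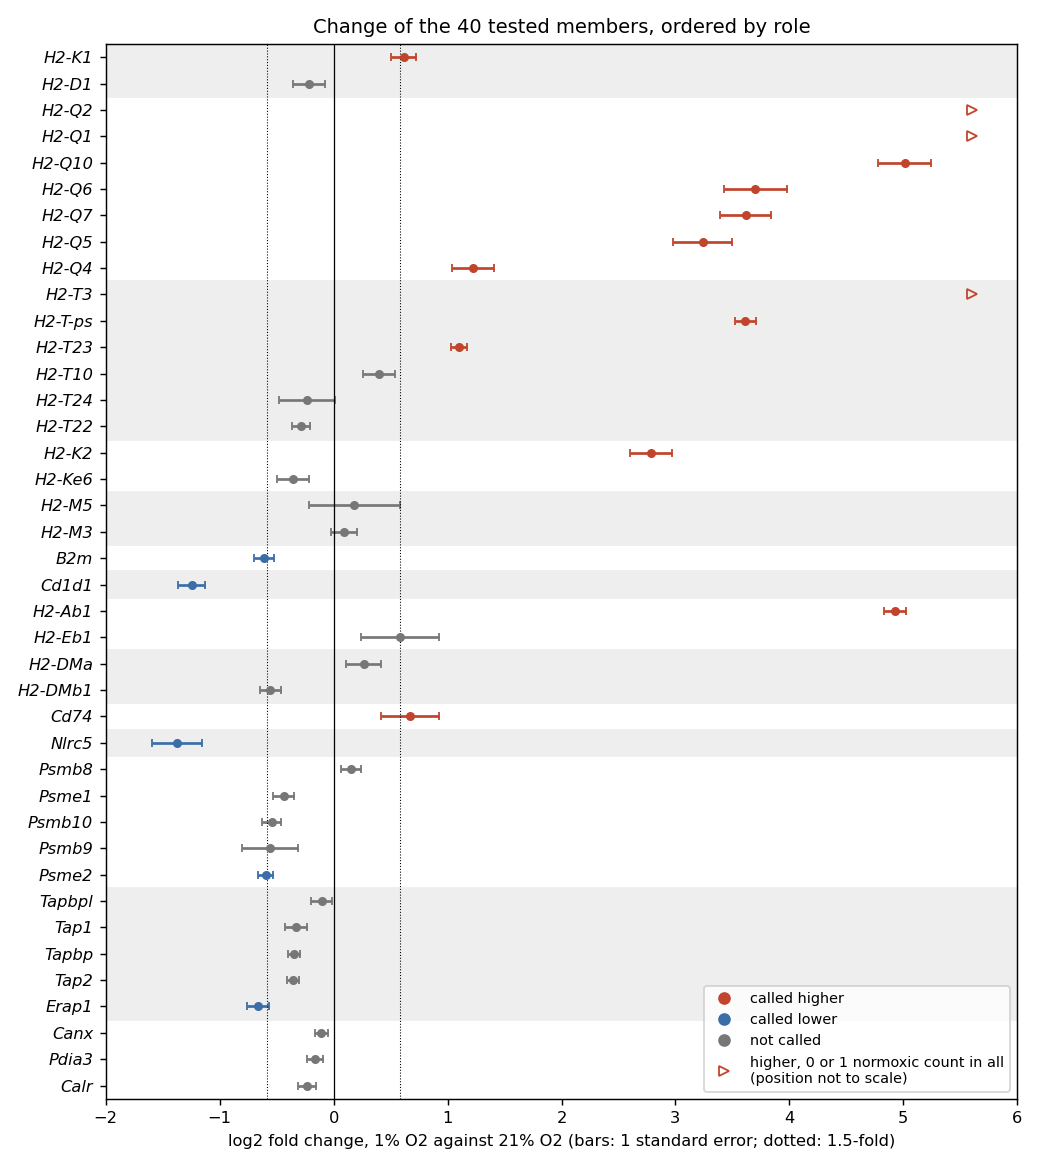
Log2 fold change of each tested member between 1% and 21% O2 with its standard error, grouped by role; dotted lines mark 1.5-fold, and open triangles mark *H2-Q2*, *H2-Q1* and *H2-T3*, which had at most 1 normoxic count in all and whose position is not to scale. The H2-Q genes, *H2-Ab1*, *H2-K2* and 3 H2-T genes extend far to the right, while *B2m*, *Cd1d1* and, apart from *Psmb8*, the genes listed from *Nlrc5* down to *Calr* lie left of 0.

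*Nlrc5*, the transactivator that drives class I heavy chains, *B2m* and several of their partners, was lower in hypoxia. It measured 10.4, 18.4 and 12.2 CPM in normoxia and 4.2, 5.71 and 5.78 CPM in hypoxia, with no overlap (log2 fold change -1.38 ± 0.22, edgeR adjusted p = 5.1e-04). *Ciita*, its counterpart for class II genes, was barely counted, with 4, 1 and 10 counts in normoxia and 7, 7 and 4 in hypoxia, and a difference was not detectable at this depth.

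Genes that supply peptides were lower or not called. Of the 5 genes of the immunoproteasome and its activator, 1 was called lower, 0 higher and 4 were not called, a share near the 15.3% of all tested genes called lower. *Psme2*, a subunit of the proteasome activator, measured 51.1, 58.8 and 52.7 CPM in normoxia and 34.8, 36.1 and 36.5 CPM in hypoxia (log2 fold change -0.60 ± 0.07, edgeR adjusted p = 5.5e-05). Its fold is at the threshold, and it lost the call without normoxia replicate 2 (-0.54) or hypoxia replicate 1 (-0.58). Its partner *Psme1* had a log2 fold change of -0.44 ± 0.09.

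0 of the 3 inducible catalytic subunits were called by edgeR, DESeq2 or limma-voom, and 2 of them, *Psmb9* and *Psmb10*, had an unadjusted edgeR p under 0.05. *Psmb10* measured 20.9, 23.5 and 22.9 CPM in normoxia and 13.9, 16.1 and 16 CPM in hypoxia, a log2 fold change of -0.55 ± 0.09 just inside the fold threshold. *Psmb9* measured 3.04, 5.50 and 4.30 CPM against 2.63, 3.64 and 2.45 CPM, with overlapping groups (-0.56 ± 0.25, edgeR adjusted p = 0.0744). *Psmb8* measured 24.9, 30.4 and 26.8 CPM against 28.0, 32.5 and 30.9 CPM, also with overlap (0.15 ± 0.09, edgeR adjusted p = 0.156). *Psmb10* was called lower at -0.60 without normoxia replicate 1, and *Psmb9* at -0.76 without either that sample or hypoxia replicate 2. The exons of *Psmb9* and *Tap1* overlap on opposite strands.

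Of the 5 genes for transport and peptide editing, 1 was called lower and 4 were not called, again near the share of all tested genes. *Erap1*, the peptidase that trims peptides in the endoplasmic reticulum, measured 39.8, 36.9 and 33.7 CPM in normoxia and 20.9, 22.8 and 25.9 CPM in hypoxia (log2 fold change -0.66 ± 0.09, edgeR adjusted p = 2.4e-04). The transporter subunits *Tap1* and *Tap2* and tapasin (*Tapbp*) were lower in every hypoxic sample but by less than 1.5-fold. *Tap1* measured 26.4, 30.2 and 25.9 CPM against 19.5, 24.0 and 22.1 CPM (log2 fold change -0.33 ± 0.09), and *Tap2* 61.3, 66.4 and 63.8 CPM against 48.8, 50.9 and 49.6 CPM (-0.36 ± 0.05). The ratio of *Tap1* to *Tap2* was 0.430 ± 0.024 in normoxia and 0.439 ± 0.037 in hypoxia (SD). *Tapbp* measured 193, 181 and 187 CPM against 147, 149 and 145 CPM (-0.35 ± 0.05). The tapasin-related editor *Tapbpl* overlapped between conditions (-0.10 ± 0.09).

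The folding chaperones of class I chains, which serve many other proteins too, were abundant in both conditions. *Calr* measured 1272, 1091 and 1218 CPM in normoxia and 1064, 962 and 1018 CPM in hypoxia, *Canx* 567 to 621 against 541 to 550 CPM, and *Pdia3* 786 to 911 against 733 to 760 CPM. 0 of the 3 were called by edgeR, DESeq2 or limma-voom, with edgeR log2 fold changes of -0.23 ± 0.08, -0.11 ± 0.06 and -0.16 ± 0.07. Their groups did not overlap, as in 68.9% of all tested genes, and 2 of the 3 had an unadjusted edgeR p under 0.05.

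For MHC class II, a rise was seen in a single chain. *H2-Ab1* (chr17:34257689-34269419), the beta chain of I-A, had 93, 109 and 122 counts in normoxia and 3295, 4127 and 3971 in hypoxia. These are 3.58, 4.14 and 4.95 CPM against 129, 132 and 125 CPM, a log2 fold change of 4.93 ± 0.10 (SE). The alpha chain with which it forms a molecule, *H2-Aa*, had 0, 2 and 0 counts in normoxia and 0, 2 and 1 in hypoxia. *H2-Eb1*, the beta chain of I-E, had 22, 14 and 14 counts against 21, 43 and 23, with overlapping groups and a log2 fold change of 0.59 ± 0.34. *H2-Eb2* and *H2-Ea-ps* had 0 counts in every library. All 75-base windows of *H2-Ab1*, *H2-Aa* and *H2-Eb1* were found in no other gene. The class II chain sum therefore mostly repeats *H2-Ab1*: its log2 fold change of 4.73 ± 0.08 became 0.58 ± 0.34 without that gene.

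The genes that load class II molecules showed no such rise. The invariant chain *Cd74* measured 1.23, 2.13 and 1.54 CPM in normoxia and 2.55, 3.13 and 2.14 CPM in hypoxia. Its hypoxic samples lay above the normoxic ones by a narrow margin, and it was called higher (log2 fold change 0.67 ± 0.25, edgeR adjusted p = 0.0422). The call was lost in DESeq2 (adjusted p = 0.0689) and in 4 of the 6 fits without 1 sample, those without normoxia replicate 1 or 3 or hypoxia replicate 1 or 2 (edgeR adjusted p = 0.131, 0.112, 0.0788 and 0.153). Over all 6 such fits its log2 fold change ran from 0.50 to 0.90. The ratio of *H2-Ab1* to *Cd74* was 2.69 ± 0.66 in normoxia and 50.4 ± 8.1 in hypoxia (SD, not tested). The peptide exchanger chain *H2-DMb1* measured 18.3, 21.7 and 19.5 CPM in normoxia and 13.9, 13.9 and 12.6 CPM in hypoxia (-0.56 ± 0.09, edgeR adjusted p = 5.8e-04), short of 1.5-fold with all samples and past it, at -0.62, without normoxia replicate 1. Its partner *H2-DMa* measured 4.12, 5.81 and 4.54 CPM against 5.81, 5.42 and 6.16 CPM, with overlapping groups (0.26 ± 0.15). *H2-DMb2*, *H2-Oa* and *H2-Ob* had at most 3 counts in any library.

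Other cell types that carry class II were looked for by their markers, and the RNA was from bulk PSC cultures, in which fewer cells of a type and less RNA per cell cannot be told apart. Fibroblast markers were abundant in all samples, with sums of 12 genes of 28460 to 35660 CPM in normoxia and 30500 to 35340 CPM in hypoxia, with *Col3a1* (11150 and 12740 CPM) and *Col1a1* (8321 and 8496 CPM) among the most abundant. Of these 12 genes, 2 were called higher, *Pdgfra* (log2 fold change 0.82) and *Pdpn* (0.99), and 2 lower, *Lum* (-2.17) and *Thy1* (-1.005). Macrophage markers were present, and 11 of 18 were called lower, 0 higher and 7 were not called (15.3% of all tested genes were called lower), with sums of 1098 to 1956 CPM in normoxia and 567.5 to 1044 CPM in hypoxia. *Lyz2* fell from 900 ± 256 to 413 ± 120 CPM (SD, edgeR adjusted p = 0.0024), while *Ptprc*, which marks white blood cells, measured 11.1 ± 2.5 and 7.32 ± 2.3 CPM and was not called. Their part in the falls of *Nlrc5*, *B2m* and *Cd1d1*, or in the class II values, was not tested.

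B cell and T or NK cell markers were at or near 0 in both conditions, with *Ms4a1*, *Cd3e*, *Cd3g*, *Cd8a* and *Ncr1* at 0 counts in every library. The 5 B cell markers together stayed at or under 0.479 CPM and the 7 T or NK cell markers at or under 1.44 CPM. Of 8 dendritic cell markers, 3 passed the filter and 1, *Batf3*, was called higher. It had 3, 1 and 3 normoxic counts against 27, 33 and 33, so that it passed through its hypoxic counts alone. The sums were 11.2 to 11.4 CPM in normoxia and 8.17 to 9.96 CPM in hypoxia. Most of this was *Zbtb46*, lower in every hypoxic sample (9.35 ± 0.39 against 6.82 ± 0.72 CPM, SD) but not called. *Clec9a* had 25, 10 and 19 normoxic counts against 5, 5 and 4 and was not tested, and *Cd209a* had 0 counts. Of 8 epithelial markers, 3 passed the filter and 1, *Krt19*, was called, with *Epcam* at 0.013 CPM in normoxia and 0 in hypoxia. *Krt19* was higher in hypoxia (0.715 ± 0.30 against 22.1 ± 1.7 CPM, SD) and stands on the epithelial, mesothelial and antigen-presenting CAF lists alike. Of the 11 antigen-presenting CAF markers, 9 passed the filter, with 4 called higher (*H2-Ab1*, *Krt19*, *Saa3* and *Cd74*) and 1 lower (*Nkain4*). That list shares 4 genes with the members and was written with these results known. Over all tested genes, 18.9% were called higher and 15.3% lower. Among the endothelial markers, *Pecam1* measured 2.17 ± 0.76 and 2.13 ± 0.77 CPM, and 1 of the 4 tested genes, *Kdr*, was called lower by edgeR but not by DESeq2. Of the 8 mesothelial markers, 2 passed the filter and were called higher, *Krt19* and *Wt1* (24.3 ± 4.3 against 41.2 ± 0.55 CPM), while *Upk3b* (0.419 against 0.127 CPM) and *Msln* (0.235 against 0.0740 CPM) were too low to be tested.

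The other genes of the pathway were read from lists written by hand, with counts to be set beside the 18.9% called higher and 15.3% called lower of all tested genes. Of 17 genes of the constitutive proteasome, 0 were called by edgeR, DESeq2 or limma-voom, with a median log2 fold change of -0.19, and 11 were lower at an unadjusted edgeR p under 0.05. Of 13 tested genes for further peptide trimming and loading, 1 was called, the cytosolic aminopeptidase *Npepps*, higher at 0.98 (edgeR adjusted p = 2.8e-06). The lysosomal genes that prepare class II peptides were lower or not called: 5 of 13 were called lower, 0 higher, with a median of -0.41. The macrophage markers given above had a median of -1.03 over 18 genes, and their part in these values was not tested. The protease *Lgmn* fell by 0.87 and the lysosomal membrane protein *Lamp1* by 0.78 on the log2 scale. *Ctss*, the cathepsin that cuts the invariant chain, measured 52.0 ± 12.5 and 35.1 ± 10.8 CPM (SD, edgeR adjusted p = 0.0516).

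Of 21 genes for MHC transcription and interferon signalling, 5 were called higher and 2 lower, with a median log2 fold change of 0.29. *Irf1*, an interferon regulatory factor that binds the ISRE, rose from 23.5, 27.9 and 21.7 CPM to 39.0, 36.5 and 38.1 CPM (0.63 ± 0.09, edgeR adjusted p = 2.6e-04). The interferon receptor chain *Ifnar2* was higher at 1.09 ± 0.07. *Rfx5*, part of the complex that recruits *Ciita* to class II promoters, was not called (0.24 ± 0.08), while *Rfxank*, of the same complex, was called higher at 0.71 (edgeR adjusted p = 4.7e-04). Of 6 NF-kB genes, 5 were called higher and 0 lower with a median of 1.42, among them *Nfkbia* (1.62 ± 0.06) and *Nfkb1* (1.52 ± 0.05). Over all tested genes, 18.9% were called higher and 15.3% lower.

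Ligands that act beside MHC molecules at the cell contact were also read. Of 12 tested costimulation and checkpoint ligands, 4 were called higher and 0 lower, with a median of 0.52. The shares over all tested genes were 18.9% and 15.3%. The widest were *Tnfsf9*, the ligand of 4-1BB, from 11.7 ± 0.27 to 46.2 ± 3.0 CPM, and *Pvr*, from 47.5 ± 3.8 to 185 ± 14 CPM (SD). *Cd274*, which encodes PD-L1, measured 3.77, 4.82 and 3.81 CPM against 6.44, 7.21 and 4.62 CPM and was not past the fold threshold (0.56 ± 0.19). *Ulbp1*, a stress ligand of the NK receptor NKG2D, fell from 36.8 ± 1.2 to 17.1 ± 0.32 CPM (edgeR adjusted p = 8.7e-07), and it was the only one called of the 3 tested NK ligands.

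The position of the members in the MHC was described last, over a region chosen after the values were seen, from *H2-K2* to *H2-M3*. It held 27 tested members, of which 13 (48.1%) were called higher and 0 lower, with a median log2 fold change of 0.59. These include the rises known when the group was formed, and *H2-Q1*, *H2-Q2* and *H2-T3* were tested through their hypoxic counts alone, so nothing is read from the share. The other 93 tested genes between them included 26 called higher (28.0%) and 9 lower (9.68%), with a median of 0.19. Some of these, such as *4833427F10Rik* and *BC023719* with 0 normoxic counts, were also tested through their hypoxic counts alone, and since the region was chosen after the values were seen, its shares are not read against the rest of the genome. The members called higher stood in 4 places, the *H2-K2* and *H2-K1* pair, *H2-Ab1*, the H2-Q stretch and part of the H2-T stretch. Between *H2-K1* and *H2-Ab1* lie *Tap1*, *Tap2*, *Psmb8*, *Psmb9*, *H2-DMa* and *H2-DMb1*, none of which was called.

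**Figure D4:**
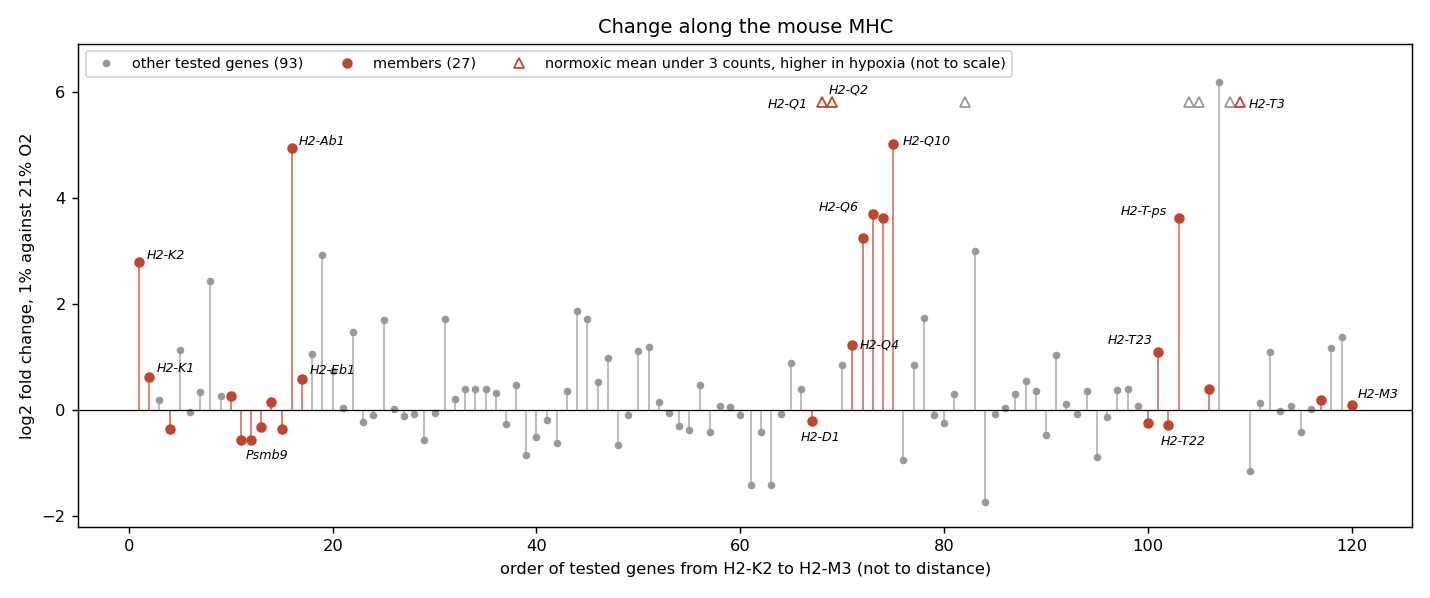
Log2 fold change between 1% and 21% O2 for every tested gene from *H2-K2* to *H2-M3*, in the order of their starts on chromosome 17; red marks the 27 members, grey the 93 other genes, and open triangles genes whose normoxic mean was under 3 counts, drawn not to scale. Tall red lines stand in the H2-Q block and also at *H2-Ab1*, *H2-T-ps* and *H2-K2*. *H2-D1*, at the left edge of the H2-Q block, was not called.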

How the data were processed

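Gene expression was measured by RNA-seq in PSCs grown with mT3 organoids, 3 cultures under 21% O2 and 3 under 1% O2. The authors made poly(A) libraries, trimmed adapters, mapped reads to GRCm38 with STAR 2.6.1b and assigned them to genes with RSEM 1.3.1. The deposited values are expected counts per gene, not normalized, and all were whole numbers. The annotation release and strand setting are not given in the sources used here. Symbols came from GENCODE M21, which held 55240 of the 55426 identifiers, and 186 were not found.

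Genes were filtered with filterByExpr (16207 kept), scaled by TMM and tested in edgeR 4.0.16 (R 4.3.3, limma 3.58.1) with its quasi-likelihood test, adjusting p-values over all 16207 genes after Benjamini and Hochberg. The call thresholds, 1.5-fold and adjusted p under 0.05, are those of the study's methods, whose tool, DESeq2 (1.42.0), was an alternative. CPM are counts per 1000000 counts of the TMM-scaled library size, and the standard error is the log2 fold change divided by the square root of F. For family sums, the rows of a family were replaced by their sum and the whole table was fitted again. The scripts were tested on simulated data.

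Libraries held 24749601 to 31925054 counts, so 3 counts correspond to 0.0943 to 0.122 CPM. Counts of reads are not independent molecules, and intervals and floors cover counting error only. Replicates of a condition differed by more than sampling noise (chi-square per degree of freedom 5.68 to 22.5).

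The members and lists were chosen with earlier results of these data known. The rule for values named the 2 members of each role with the highest level per length, and named partners. It also named the 3 called members with the largest rise and the 3 with the largest fall, at a mean of at least 1 CPM. Of the other lists it named *Irf1*, *Rfx5*, *Ctss*, *Cd274* and the 2 widest called genes. Of the marker lists it named the most abundant gene and *Ptprc*, *Csf1r*, *Epcam*, *Pecam1* and *Col1a1*. Results are given per sample or only as a mean, a range, a fold change or a call. The most abundant B cell and T or NK cell markers are covered by their list sums. Other genes were named after their values were seen. *Csf1r* measured 40.4 and 34.2 CPM in normoxia and hypoxia and was not called. The comparison of 75-base windows and the view by gene order were added after the data were seen. 1 gene that this rule names is not reported here. A planned comparison of protein identity was not run.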

Additional observations from a re-analysis of the deposited data

How the results depend on the processing

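The 40 tested members were refitted with other scalings (DESeq2 size factors, upper quartile, library totals only), without the low-count filter, in DESeq2 and limma-voom, with the replicate number as a block, and without each sample in turn. Of 520 such values, 17 changed side of the threshold or sign, in 9 members, and 31 members had none. The count called higher was 14 under the other scalings and 13 in DESeq2, 15 without a fold threshold, 12 beyond 2-fold, and 12 to 14 without 1 sample. It includes rises known when the group was formed, and *H2-Q1*, *H2-Q2* and *H2-T3* were tested through their hypoxic counts alone. Nothing is therefore read from the steadiness of this count. The count called lower was 14 without a fold threshold and 2 beyond 2-fold, against 5, and 3 to 8 without 1 sample, 8 without normoxia replicate 1 and 3 without hypoxia replicate 1. The class II chain sum fell to a log2 fold change of 0.578, no longer called, without *H2-Ab1*. *H2-M5* ran from -0.172 (without normoxia replicate 1) to 0.515 and *H2-M3* from -0.000317 (without hypoxia replicate 2) to 0.190. Without 1 sample, log2 fold changes ran from 0.0708 to 0.301 for the classical sum, 2.49 to 2.96 for H2-Q, 0.881 to 0.970 for H2-T, 0.00457 to 0.192 for H2-M, 4.66 to 4.81 for class II chains and -0.425 to -0.277 for class II helpers. Other scalings moved the median of all genes to at most -0.0276. With the replicate number as a block, 14 members were called higher and 5 lower, the same counts as without, and no member changed its call. Deviations of same-numbered samples correlated at 0.222, 0.195 and 0.0529, and every sample correlated best with its own number, a hint from the data and not the design. At these depths members with 3 or fewer counts in each library could not be compared.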
